A study of Mus musculus with 14 samples.

Results

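Sntb1, Pkhd1, Clvs1, Gc, Ky and Tmprss11f are 6 mouse genes that were close to silent in wild-type spermatogonia and carried 46 to 581 counts per library in spermatogonia without the DNA methyltransferase DNMT3C. They are 6 of 32667 genes listed for spermatogonia and of 36888 listed for spermatocytes. The members were chosen by their own gene counts, that is by low counts in WT libraries and higher counts in KO libraries, so the differences between KO and WT given for them are a description and carry no test. The name of switched-on genes holds to unequal degrees. Pkhd1, Clvs1, Gc and Tmprss11f had at most 3 counts in each WT spermatogonia library, Sntb1 had 12 to 15, and Ky had 38 to 60 and was therefore transcribed at a low level in WT.

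The libraries were made from polyadenylated RNA of sorted germ cells of C57Bl6/J mice, with 3 libraries of Dnmt3C KO/KO spermatogonia (Spg), 3 of WT Spg, 4 of Dnmt3C KO/KO spermatocytes (Spc) and 4 of WT Spc. Spg were sorted by surface markers from testes at postnatal day 14, and Spc by a DNA dye from mice older than 20 days. KO and WT animals were littermates and KO stands for Dnmt3C KO/KO. The KO is constitutive, and its germ cells arrest at the pachytene stage of meiosis, so the KO Spc sort lacks later stages that the WT Spc sort holds. Total counts per library, in units of 1000000, were 40.6 to 49.3 in Spg and 44.9 to 53.3 in Spc.

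DNMT3C is a rodent-specific enzyme of the male germ line that methylates promoters of young retrotransposons before birth. L1 elements are LINE retrotransposons with an internal promoter, and L1Md_T, L1Md_A and L1Md_Gf are their young mouse subfamilies. IAP and other ERVK elements are endogenous retroviruses whose long terminal repeats (LTRs) act as promoters and can also start transcripts that run into flanking genes. The 6 genes are best known from other tissues. Sntb1 encodes syntrophin beta 1, an adaptor of the dystrophin complex, and Ky encodes a muscle protein named after the kyphoscoliosis mouse. Pkhd1 encodes fibrocystin, a protein of the primary cilium whose loss causes recessive polycystic kidney disease. Gc encodes the vitamin D binding protein, which the liver secretes, Clvs1 encodes clavesin 1, a lipid-binding protein of neurons, and Tmprss11f encodes a transmembrane serine protease.

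Promoters are shown first because the members share a response and can be compared at the sequence where their annotated transcripts start. RefSeq on GRCm38.p6 held a promoter, from 250 bases before to 50 after the start, for 4 of the 6, and Sntb1 and Clvs1 were not matched. Each is written 5′ to 3′ along the gene, with CpG, the dinucleotide that DNA methyltransferases methylate, in capitals. They lie at chr9:102505888-102506187 on the plus strand (Ky), and on the minus strand at chr1:20618008-20618307 (Pkhd1), chr5:86632375-86632674 (Tmprss11f) and chr5:89457849-89458148 (Gc).
Ky: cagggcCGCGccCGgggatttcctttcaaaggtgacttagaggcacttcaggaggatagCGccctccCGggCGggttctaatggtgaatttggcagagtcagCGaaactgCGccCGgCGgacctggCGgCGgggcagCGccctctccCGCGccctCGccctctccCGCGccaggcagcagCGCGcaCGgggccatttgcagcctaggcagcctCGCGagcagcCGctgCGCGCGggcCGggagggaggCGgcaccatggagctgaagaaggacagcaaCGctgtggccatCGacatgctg
Pkhd1: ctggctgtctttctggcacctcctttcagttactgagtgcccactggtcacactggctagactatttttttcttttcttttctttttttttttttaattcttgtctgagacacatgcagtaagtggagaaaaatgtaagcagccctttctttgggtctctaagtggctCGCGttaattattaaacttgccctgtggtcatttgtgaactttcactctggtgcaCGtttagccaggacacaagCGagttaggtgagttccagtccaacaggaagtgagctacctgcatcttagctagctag
Tmprss11f: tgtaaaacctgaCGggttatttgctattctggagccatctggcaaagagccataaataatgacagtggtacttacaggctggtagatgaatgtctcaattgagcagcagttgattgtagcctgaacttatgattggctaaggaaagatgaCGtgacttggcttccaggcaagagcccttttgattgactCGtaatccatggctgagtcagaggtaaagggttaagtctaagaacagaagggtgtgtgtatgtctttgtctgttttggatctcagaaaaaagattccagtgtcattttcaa
Gc: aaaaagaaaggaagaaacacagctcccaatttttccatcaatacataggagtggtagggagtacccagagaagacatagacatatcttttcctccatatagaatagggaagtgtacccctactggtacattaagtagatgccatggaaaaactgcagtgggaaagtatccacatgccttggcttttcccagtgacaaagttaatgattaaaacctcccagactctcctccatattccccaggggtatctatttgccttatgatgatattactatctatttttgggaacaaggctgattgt
The Ky promoter held 31 CpG and was rich in G and C (69.0%). Those of Pkhd1, Tmprss11f and Gc held 4, 3 and 0 CpG at 43.3%, 42.0% and 40.3% G and C. Over 32851 RefSeq promoters of the same length the median was 7 CpG and 52.7%, so that Ky lay above it and the other 3 below. The 9-letter core GCGCATGCG of the NRF1 site and the full cAMP response element TGACGTCA were searched on both strands. Neither was found in any of the 4, and 1.75% and 1.79% of all promoters hold them. The shorter letters TGACG, which are part of the second motif, were found in the Tmprss11f promoter and in 20.8% of all promoters.

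In KO Spg, all 6 genes were far above WT. Sntb1 (ENSMUSG00000060429.12, chromosome 15, 55636388 to 55906949, minus strand, GRCm38) had 494, 511 and 328 counts in the KO libraries (replicates 1 to 3), and WT had 15, 12 and 14. As TMM-scaled counts per 1000000 (CPM) this was 9.19 ± 1.95 in KO and 0.305 ± 0.0107 in WT (SD, n = 3), a 30.1-fold higher level in KO. Ky (ENSMUSG00000035606.8, chromosome 9, 102505750 to 102546239, plus strand) had 581, 437 and 531 counts in KO and 38, 39 and 60 in WT. Its level was 10.7 ± 1.41 against 1.02 ± 0.243 CPM, 10.5-fold higher. These are the 2 members with a measurable WT level, and the WT libraries of each lay close together.

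The other 4 members were at the floor in WT Spg, taken as at most 3 counts in each library, so that their folds are lower bounds computed against 3 counts per library. Pkhd1 (ENSMUSG00000043760.16, chromosome 1, 20057779 to 20618064, minus strand) had 551, 479 and 387 counts in KO and 0, 2 and 0 in WT, at least 145-fold higher. Clvs1 (ENSMUSG00000041216.15, chromosome 4, 9269293 to 9451691, plus strand) had 552, 375 and 282 in KO and 1, 0 and 3 in WT, at least 123-fold higher. KO replicate 3 was the lowest KO library for both genes, and still far above WT. Gc (ENSMUSG00000035540.12, chromosome 5, 89417522 to 89457898, minus strand) had 343, 215 and 274 counts in KO and 0 in all WT libraries, at least 85.2-fold higher. Tmprss11f (ENSMUSG00000048764.16, chromosome 5, 86521898 to 86632424, minus strand) had 105, 90 and 46 in KO and 0 in all WT libraries, at least 24.6-fold higher. It was the least abundant member in each KO Spg library.

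Of the 6, 5 were called higher in KO Spg by edgeR's quasi-likelihood test at a Benjamini-Hochberg adjusted p under 0.01, and Tmprss11f was not. Over all genes tested, 0.0436% were called and 0.0387% were called higher, and nothing is read from the members' count because this contrast chose them. For all 6 the lowest KO library lay above the highest WT library, as it did for 5.04% of genes tested. The number of members called depended on single libraries. It was 0 without KO replicate 2 (no gene of the table was then called higher) or without WT replicate 1, 1 without KO replicate 3 (Sntb1) and 3 without KO replicate 1 (Sntb1, Pkhd1 and Clvs1). DESeq2 called all 6, and it called 0.658% of all genes higher.

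**Figure D1:**
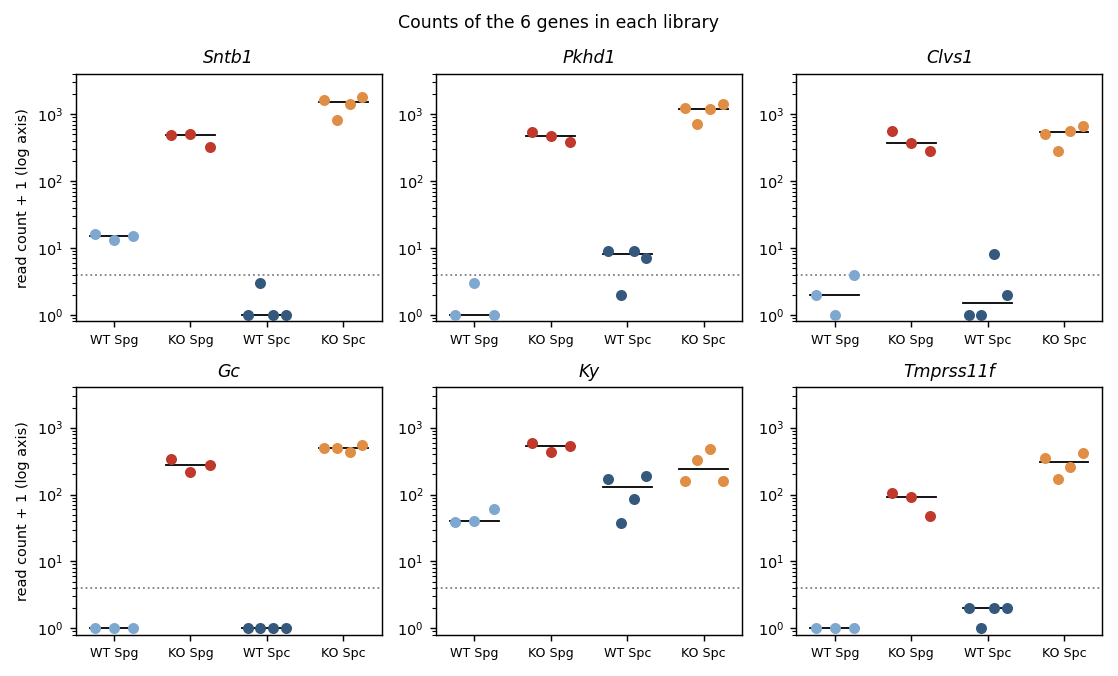
Read count plus 1 of each of the 6 genes in the 14 libraries (y axis, log scale), with 1 panel per gene, 1 point per library, a short line at the median of each group and a dotted line at the floor of 3 counts. In spermatogonia the KO points of every gene lie above the WT points, and in spermatocytes this holds for all but Ky, whose KO (159 to 471 counts) and WT libraries (37 to 188 counts) overlap.

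In Spc, 5 of the 6 genes showed the same separation and Ky did not. Sntb1 had 1633, 829, 1445 and 1784 counts in the KO libraries (replicates 1 to 4), and WT had 0, 2, 0 and 0, at least 315-fold higher. Gc had 495, 488, 427 and 542 counts in KO and 0 in each WT library, at least 107-fold higher. Tmprss11f had 353, 170, 261 and 423 against 1, 0, 1 and 1, at least 67.0-fold higher. No KO library of these genes came near a WT library, and KO replicate 2 was the lowest for Sntb1 and Tmprss11f.

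Pkhd1 and Clvs1 had a few counts in WT Spc. Pkhd1 had 1222, 711, 1189 and 1446 counts in KO Spc and 8, 1, 8 and 6 in WT, a 133-fold higher mean CPM (19.7 ± 6.31 against 0.148 ± 0.0856, SD, n = 4). Clvs1 had 515, 279, 557 and 667 in KO and 0, 0, 7 and 1 in WT, a 202-fold higher mean. The WT mean of Clvs1 rested on WT replicate 3, and without it WT was at the floor and KO at least 104-fold higher. KO replicate 2 was again the lowest. Ky had 161, 325, 471 and 159 counts in KO Spc and 172, 37, 84 and 188 in WT. The Ky groups overlapped, and the means of 4.68 ± 2.40 and 3.30 ± 2.36 CPM differed by less than their spread. In KO Spc, Ky was high in replicates 2 and 3, whereas in WT it was high in replicates 1 and 4.

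In Spc 5 of 6 members were called higher, all but Ky, and this number was the same in each alternative tried. Among all genes tested in Spc, 58.8% were called and 28.0% were called higher, and in 34.2% the lowest KO library lay above the highest WT library. Nothing is read from the members' count here either, since the choice may have used this table too. The median log2 fold change over all genes was 0.02 in Spg and 0.11 in Spc.

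Some features of the libraries bear on these values. Dnmt3c itself had 58 to 116 counts in KO Spg and 53 to 89 in WT Spg, and 52 to 57 in KO Spc and 11 to 28 in WT Spc, so its counts did not serve to check the labels. Replicates 1 and 4 of Spc were much alike in each genotype but differed by more than sampling noise (median chi-square per gene 3.30 in KO and 2.46 in WT, against 24.7 to 98.4 for other pairs). They were kept apart as n = 4, and the number of independent samples may be 3. Spermatocyte markers summed to 696 to 1380 CPM in KO Spc against 5991 to 10109 in WT, and spermatogonia markers to 361 to 907 against 32.2 to 218. Peritubular markers summed to 176 to 1587 CPM in KO Spc and 14.97 to 21.4 in WT, macrophage markers to 10.6 to 53.3 and 1.65 to 2.83, and Leydig markers to 37.6 to 227 and 9.85 to 19.0. In Spg the sums of spermatocyte markers did not overlap, with 561 to 873 CPM in KO and 923 to 2059 in WT, and Ldhc (log2 difference -6.42, edgeR adjusted p = 0.0644) and Piwil1 (-4.07, edgeR adjusted p = 0.098) were called lower by DESeq2. Spermatogonia markers (1551 to 2008 and 1320 to 1818), Sertoli markers (126 to 398 and 91.0 to 347) and peritubular markers (6.35 to 8.01 and 5.36 to 12.6) overlapped in Spg. The part of these differences in the values of the members was not tested, and in sorted bulk samples a change in the cells present cannot be told apart from a change in RNA per cell.

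Levels can be compared between the genes per kb of annotated exon. In KO Spg, Gc was highest with 3.11 ± 0.663 CPM per kb (n = 3), followed by Ky with 1.82 ± 0.239, Sntb1 with 1.73 ± 0.367, Clvs1 with 1.098 ± 0.345, Pkhd1 with 0.682 ± 0.102 and Tmprss11f with 0.243 ± 0.0882. The libraries of Ky and Sntb1, and those of Sntb1 and Clvs1, overlapped, whereas Gc lay above and Tmprss11f below all others. In KO Spc, Sntb1 (4.62 ± 1.58 CPM per kb, n = 4) and Gc (4.52 ± 0.641) overlapped with each other and lay above the rest. Pkhd1 (1.38 ± 0.441), Clvs1 (1.15 ± 0.424), Ky (0.796 ± 0.409) and Tmprss11f (0.768 ± 0.320) overlapped.

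The levels of the members in KO can also be set side by side between the 2 stages. The KO libraries of both stages took part in choosing the members, so these differences are given without p and are a description as well. In a fit over all 14 libraries, Tmprss11f was 4.25-fold higher in KO Spc than in KO Spg (log2 difference 2.08, SE 0.48) and Sntb1 was 3.60-fold higher (1.85, SE 0.45). Pkhd1 was 2.72-fold (1.441, SE 0.50) and Gc 1.96-fold higher (0.97, SE 0.34). For these 4 genes all KO Spc libraries lay above all KO Spg libraries in CPM. The share of all genes that did so is not given here. Clvs1 had a difference of 0.50 (SE 0.61) and Ky one of -0.76 (SE 0.53), and the libraries of both genes overlapped. At the threshold used above, edgeR called 0 of the 6, beside 3.05% of all genes. At an unadjusted p under 0.05 there were 4, and the share of all genes at that level is not given here. DESeq2 called 4 (Sntb1, Pkhd1, Gc and Tmprss11f), and it called 2093 of all genes higher in KO Spc. Nothing is read from these counts.

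In WT the members were chosen for low counts, so a difference between the WT stages is likewise given without p. Sntb1, at 12 to 15 counts in WT Spg, was at least 2.79-fold lower in WT Spc, where 3 of 4 libraries had none. Ky was 4.45-fold higher in WT Spc than in WT Spg (log2 difference 2.15, SE 0.58), with no overlap in CPM. Pkhd1 had 1 to 8 counts in WT Spc and 0 to 2 in WT Spg, at least 3.06-fold higher, and its libraries overlapped. Clvs1, Gc and Tmprss11f had at most 7 counts in any WT library. The differences of Sntb1, Ky and Pkhd1 were called in the fit, beside 52.5% of all genes, and nothing is read from that. Without WT Spg replicate 1, without WT Spg replicate 3 and under scaling by library totals, Sntb1 was the one called. The call of Ky was kept in 8 of 20 alternatives, and its log2 difference ran from 1.26 (library totals) to 2.45.

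The genes differ in the retrotransposon copies they hold, and reads of single copies were recovered from the deposited values. Young copies were defined as L1Md_T, L1Md_A, L1Md_Gf, IAPEz-int, IAPLTR1_Mm, IAPLTR2_Mm, IAPA_MM-int, MMERVK10C-int and RLTR10C inside a gene or within 5000 bp. There were 20 in Pkhd1, 9 in Tmprss11f, 5 in Sntb1, 1 each in Clvs1 and Gc and 0 in Ky. Of these, 11, 5, 2, 1 and 1 reached a mean of 0.5 TPM (values scaled to 1000000 per library over transposon copies alone) in KO of a stage. All lay in introns, and none overlapped an exon of any annotated transcript. By the same definitions, 18.8% of the 20038 genes tested in Spg with an annotated position had a young copy and 8.50% had one that reached this minimum. Those genes had a median span of 15.4 kb, whereas the members span 40.4 to 560 kb, and length was not matched. Near-identical young copies share reads, so the assignment to a single copy is uncertain.

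Sntb1 holds a pair of long L1Md_T copies on its own strand. The first along the gene lies in intron 3 (chromosome 15, 55677601 to 55684869) and had 68, 60 and 33 reads in KO Spg and 0 in WT, and 134, 88, 138 and 247 reads in KO Spc. The other, of 6095 bp in intron 4 (55670076 to 55676170), has 3 exons of the gene downstream of it. It had 148, 171 and 83 reads in KO Spg and 0, 0 and 1 in WT, and 470, 221, 457 and 585 in KO Spc against 0, 0, 0 and 4 in WT. Exon 4 lies between the copies. Both were read in every KO library, with KO replicate 3 of Spg and KO replicate 2 of Spc lowest, as for the counts of the gene.

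Pkhd1, the longest member with a span of 560 kb and 67 exons, had copies on both strands. The leading one was an L1Md_T on the strand of the gene in intron 51 (chromosome 1, 20277948 to 20284795), with 296, 175 and 78 reads in KO Spg and 6, 0 and 0 in WT, and 731, 341, 585 and 925 in KO Spc against 0 in WT. An L1Md_A in intron 63 on the same strand (20096305 to 20102498) had 48, 69 and 12 reads in KO Spg and 238, 94, 182 and 202 in KO Spc. On the opposite strand, an L1Md_T in intron 36 (20432214 to 20438499) had 138, 122 and 72 reads in KO Spg and 421, 176, 475 and 401 in KO Spc. An L1Md_A in intron 35 (20486394 to 20492595) had 129, 120 and 77 in KO Spg and 540, 233, 565 and 620 in KO Spc. Neither opposite-strand copy had a read in WT.

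Gc and Clvs1 each hold a single young copy, on the strand of the gene. In Gc it is an L1Md_T in intron 10 of 13 exons (chromosome 5, 89427585 to 89434476) with 171, 107 and 61 reads in KO Spg and 2, 0 and 0 in WT, and 220, 136, 189 and 207 in KO Spc against 0. The annotated start of a short protein-coding transcript of 5 exons, Gc-202, lies 1152 bp upstream of this copy. In Clvs1 it is an IAPLTR2_Mm LTR of 434 bp in intron 3 (chromosome 4, 9401186 to 9401619) with 25, 8 and 30 reads in KO Spg and 21, 14, 17 and 9 in KO Spc, and 0 in WT at both stages. The LTR is the one leading copy that is not an L1, and the one whose reads were not more numerous in KO Spc than in KO Spg.

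In Tmprss11f the leading L1Md_T lies in intron 1 and runs on the opposite strand (chromosome 5, 86594135 to 86599796), with 107, 56 and 8 reads in KO Spg, 307, 77, 285 and 303 in KO Spc and 0 in WT. The gene and this copy were both highest in KO Spg replicate 1 and lowest in replicate 3, and both lowest among KO Spc libraries in replicate 2. Over all young copies of a gene, reads per 1000000 library counts (RPM) in KO Spg replicates 1 to 3 were 4.42, 4.84 and 2.49 (Sntb1), 14.98, 13.0 and 6.02 (Pkhd1), 3.47, 2.24 and 1.31 (Gc), 3.87, 2.31 and 0.471 (Tmprss11f) and 0.507, 0.168 and 0.643 (Clvs1). In KO Spc replicates 1 to 4 they were 12.8, 6.79, 13.4 and 17.9 in Sntb1, and 57.7, 27.5, 56.9 and 61.6 in Pkhd1. No WT library passed 0.148 for any gene. Replicate 2 was the lowest KO Spc library in these sums for 4 of the 5 genes, all but Clvs1. KO Spg replicate 3 and KO Spc replicate 2 also had the fewest reads over all transposon copies, as given above.

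**Figure D2:**
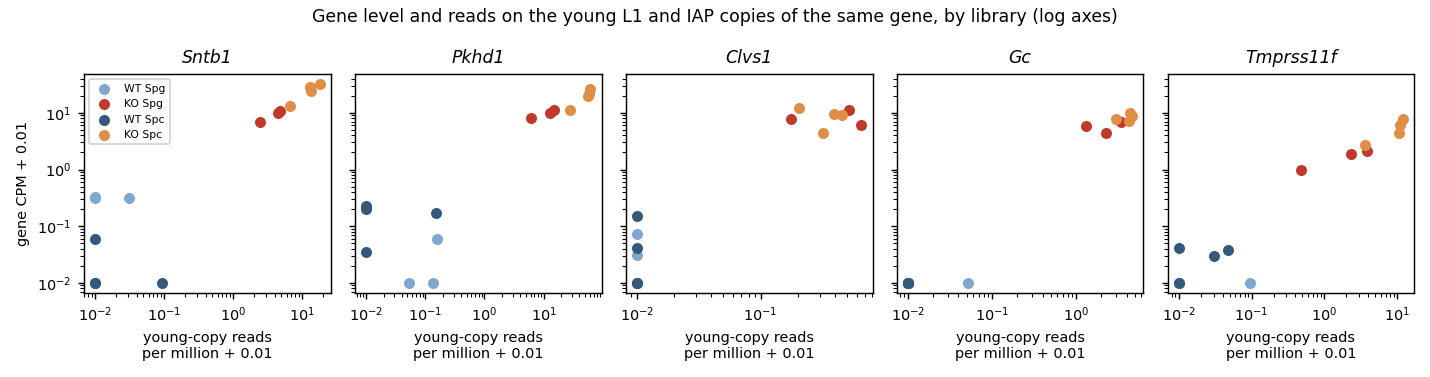
CPM of each gene (y axis, log scale, 0.01 added) against the summed RPM of the young copies inside it or within 5000 bp (x axis, log scale, 0.01 added), with 1 panel per gene and 1 point per library, coloured by group. KO libraries lie at the upper right and WT libraries at the lower left in all 5 panels, where no WT library passed 0.148 RPM on the copies, and Ky, which has no such copy, is not shown.

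Copies that the list of young subfamilies leaves out, called older here and including L1Md_F2, show where RNA was read. They are spread on both strands over introns and the flanks within 5000 bp. Sides are given along the strand of the leading young copy. In Sntb1, 16 older copies downstream of the leading L1Md_T on its strand had 156 reads in KO Spg and 645 in KO Spc. That is 39.7 and 164 reads per kb of copy. Of these reads, 61 and 313 lay on an MTB_Mm-int, 23 and 138 on an MTB_Mm and 36 and 126 on an L1M3 copy, all close to the leading L1Md_T. The 127 older copies upstream of it on that strand had 3 and 13 reads, or 0.0993 and 0.430 per kb, and WT had 0 reads on either side at both stages. Reads of older copies on the strand of Sntb1 in KO thus lay almost wholly downstream of the leading copy. The other L1Md_T, in intron 3, lies upstream of it and was read as given above.

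The same difference between sides was seen in the other genes with a young copy. In Gc, 3 older copies downstream had 27 reads in KO Spg and 138 in KO Spc, and 26 copies upstream had 0 and 9. Of the downstream reads of Gc, 23 and 121 lay on a single Lx2B copy past the end of the gene. In Clvs1, 22 copies downstream of the LTR had 14 and 15 reads, and 52 copies upstream had 0 and 0. Downstream sides thus held more reads in fewer copies in both genes. In Pkhd1 the numbers were 153 and 625 reads downstream and 41 and 82 upstream, on about as many copies (103 and 120). Of the downstream reads, 48 and 178 lay on an L1Md_F2 copy in intron 63, and 17 and 104 on an L1_Mus3 copy past the end of the gene. Young copies on that strand lie downstream too, such as the L1Md_A in intron 63. In Tmprss11f the reads were 35 and 235 downstream and 4 and 14 upstream of the opposite-strand copy, and further L1Md_T copies on its strand lie downstream. WT libraries of a stage had at most 7 reads in any of these sets.

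On the other strand the upstream side held more reads in Tmprss11f, Pkhd1 and Clvs1. In Tmprss11f, older copies on the strand of the gene had 25 reads in KO Spg and 103 in KO Spc on the side upstream of the L1Md_T, which is the side of the other 10 exons, and 0 on the side towards the annotated start. In Pkhd1 the opposite strand held 95 and 390 reads upstream of the leading copy, where the opposite-strand L1Md_T and L1Md_A lie, and 0 and 3 downstream. In Clvs1 the opposite strand held 70 and 440 reads upstream and 1 and 0 downstream. Sntb1 and Gc did not show this order clearly. Sntb1 had 13 and 70 reads upstream and 0 and 11 downstream, which in KO Spc is 1.68 and 2.30 reads per kb of copy, and Gc had 0 and 2 upstream and 0 downstream. Of the KO Spc reads of Clvs1 on that strand, 46, 49, 9 and 42 came from an L1_Mus1 copy in intron 2 (9282755 to 9283203) that had none in KO Spg or WT. It lies beside the antisense gene Gm11816 (9283972 to 9287391), which was called higher in KO Spc (log2 difference 4.9995, edgeR adjusted p = 0.000805) and was not tested in Spg. Asph, which overlaps the end of Clvs1 on the opposite strand, lies downstream of the LTR.

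**Figure D3:**
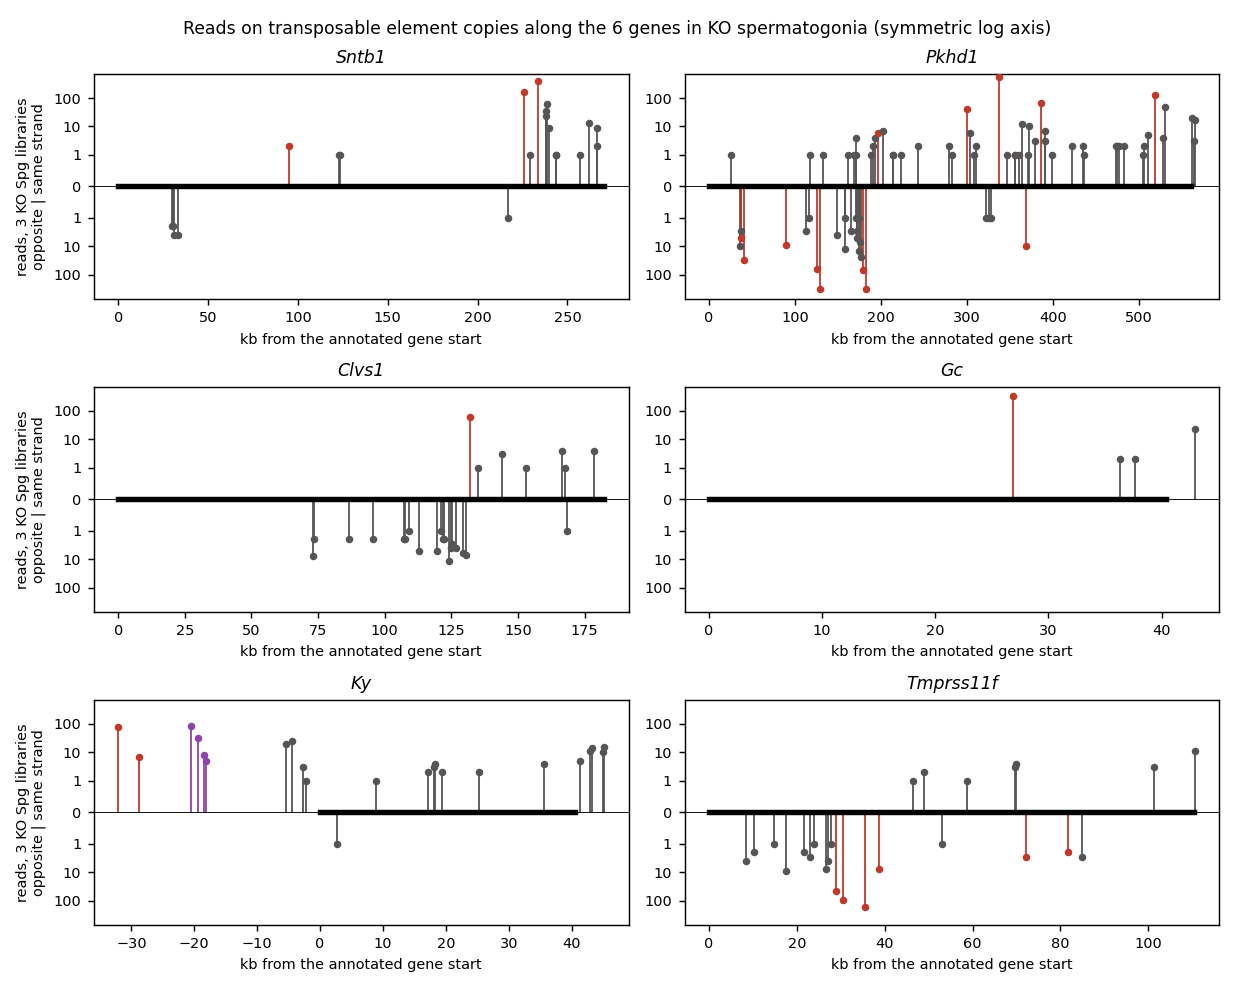
Reads on transposon copies along each of the 6 genes, summed over the 3 KO Spg libraries (y axis, symmetric log scale, strand of the gene upward and opposite strand downward), by distance from the annotated gene start in kb (x axis), with young copies in red, older copies in grey, IAP1-MM copies in purple and the gene as a black bar. In Gc no read on a copy precedes the young copy at 26.9 kb, in Sntb1 the reads on the strand of the gene cluster from 226 kb on, and for Ky, drawn with 40 kb of flank, the red and purple copies lie upstream of the gene.

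**Figure D4:**
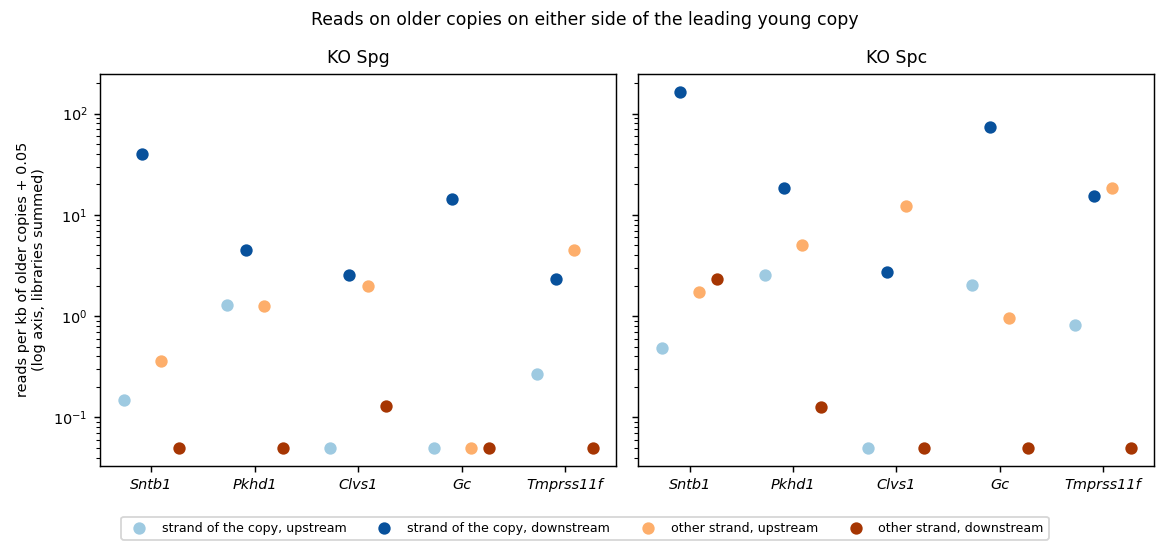
Reads per kb of older transposon copies (y axis, log scale, 0.05 added) on either side of the leading young copy in KO Spg and KO Spc, libraries summed, with 1 point per strand and side for each of 5 genes. On the strand of the copy (blue) the downstream point is the higher in each gene, from 39.7 against 0.0993 reads per kb in Sntb1 to 4.47 against 1.24 in Pkhd1 (KO Spg), and on the other strand (orange) the upstream point is the higher in Pkhd1, Clvs1 and Tmprss11f at both stages.

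Ky held no young copy. Its 56 copies included 10 of L1 or ERVK, none of which passed 0.5 TPM. Copies of any family on the strand of Ky had 24, 51 and 27 reads in KO Spg and 0 in WT Spg, and 26, 37, 50 and 33 in KO Spc against 1, 0, 0 and 1 in WT Spc. The KO and WT Spc libraries therefore did not overlap in same-strand copy reads although the counts of the gene did. Copies on the opposite strand had 0 reads in all KO Spc libraries and 23, 20, 12 and 19 in WT Spc.

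A search to 40 kb around the members, added after the values within 5000 bp were seen, found copies upstream of Ky on its strand that were read almost only in KO. An L1Md_A of 5586 bp lies 29.3 kb upstream (chromosome 9, 102470867 to 102476452) and had 39, 28 and 8 reads in KO Spg and 0, 0 and 1 in WT, and 177, 53, 174 and 244 in KO Spc against 0, 0, 1 and 0. An IAP1-MM_I-int copy of 200 bp, a piece of an IAP, lies 20.4 kb upstream (102485103 to 102485302) and had 26, 36 and 20 reads in KO Spg and 0, 0 and 1 in WT. In KO Spc it had 2, 26, 38 and 2 reads, against 0 in WT. Replicates 2 and 3 were thus high and 1 and 4 low, which is the order of the Ky counts in these libraries (161, 325, 471 and 159). It is not that of the L1Md_A, which was lowest in replicate 2. Since replicates 1 and 4 were much alike, the order may rest on 3 independent samples. The adjoining IAP1-MM_I-int copy of 1501 bp (102485580 to 102487080) did not follow that order, with 11, 10 and 10 reads in KO Spg, 8, 7, 2 and 4 in KO Spc and 0 in WT. An older L1M5 copy 5.26 kb upstream had 6, 6 and 7 reads in KO Spg, 9, 9, 11 and 3 in KO Spc and 0 in all WT libraries. The same search found an IAPLTR2b LTR 11.6 kb upstream of Clvs1, on the opposite strand (chromosome 4, 9257394 to 9257718), with 45, 11 and 87 reads in KO Spg and 4, 0 and 6 in WT, and 19, 32, 28 and 12 in KO Spc against 0, 2, 2 and 0. It had more reads in KO Spg than the IAPLTR2_Mm inside the gene.

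**Figure D5:**
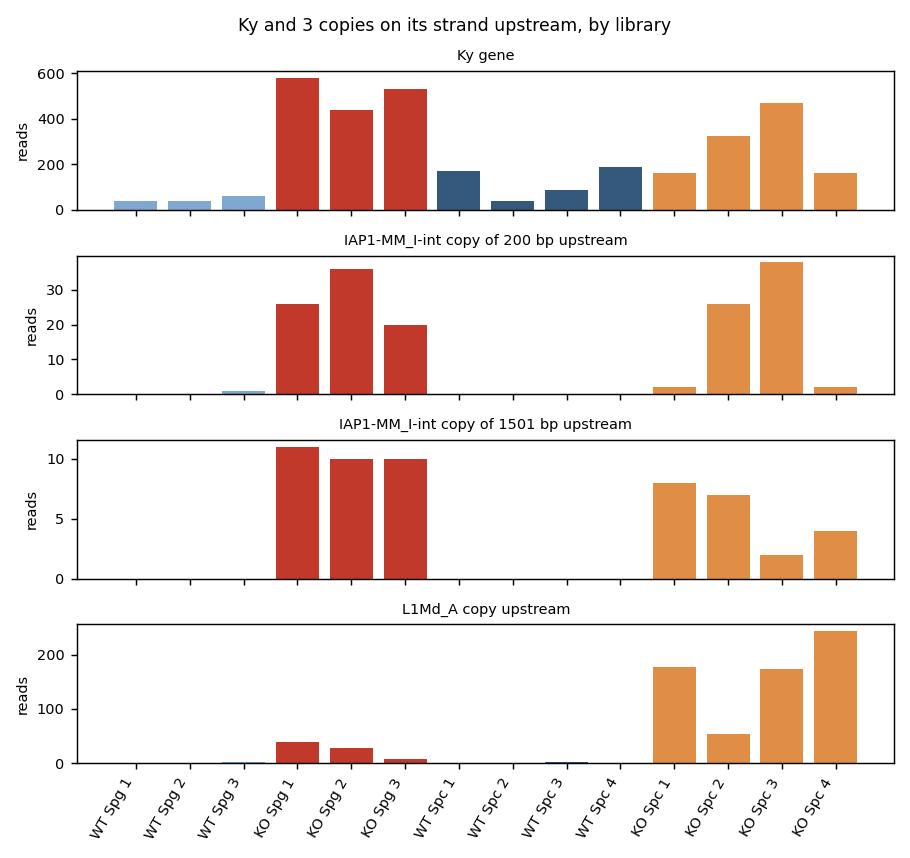
Counts of Ky (top panel) and reads on 3 copies upstream of it, the IAP1-MM_I-int copy of 200 bp, the adjoining one of 1501 bp and the L1Md_A copy (lower panels), as 1 bar per library on linear axes. In KO Spc the copy of 200 bp is high in replicates 2 and 3 (26 and 38 reads) and low in 1 and 4 (2 and 2), as Ky is, while that of 1501 bp is lowest in replicate 3 (2 reads) and the L1Md_A copy in replicate 2 (53 reads).

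The genes most like each member over the 14 libraries were ranked by Pearson's r of log2 CPM, a description whose points share their groups and libraries. Sntb1, Pkhd1, Clvs1, Gc and Tmprss11f had r of 0.944 to 0.992 among each other, and Ky had 0.505 to 0.653 with them. Kcnh1, Cdh19 and Gm6673 were most like Sntb1 (0.994, 0.994 and 0.992), Gm6673, Gc and Gm20750 most like Pkhd1 (0.993, 0.992 and 0.991), and Gm6673, Pkhd1 and Gm48161 most like Clvs1 (0.990, 0.988 and 0.987). For Gc they were the members Pkhd1, Sntb1 and Clvs1 (0.992, 0.986 and 0.986). Gm16411, Gm9165 and Gm8084 came first for Tmprss11f (0.993, 0.992 and 0.991). For Ky they were Gm27216, Gm48795 and Gm5796, at a lower 0.866, 0.851 and 0.820.

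Among transposon subfamilies the most alike were L1Md_T for Sntb1 (0.983), L1Md_Gf for Pkhd1 (0.991), IAPA_MM-int for Clvs1 (0.995), IAPLTR1_Mm for Gc (0.989), L1_Mm for Tmprss11f (0.993) and IAPLTR2a for Ky (0.817). Kcnh1 is a potassium channel and Cdh19 a cadherin.

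No relative of the members was called in Spg by edgeR, beside 0.0436% of all genes, so nothing is read from the 0. Of 38 relatives in 6 lists that the tables held by name, 29 were tested, with 2 at an unadjusted p under 0.05 and 1 called by DESeq2 (Pkhd1l1). Of the 20659 genes tested in Spg, 1509 had an unadjusted p under 0.05, and DESeq2 called 136 higher and 378 lower. The median log2 fold change of the relatives was 0.05, beside 0.02 over all genes. Pkhd1l1, the fibrocystin-like paralog of Pkhd1, had 260, 263 and 152 counts in KO Spg and 6, 2 and 11 in WT, a log2 difference of 5.03 (edgeR adjusted p = 0.0136). Its groups did not overlap, and it was the relative closest to the threshold.

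In Spc, where 58.8% of genes were called, 14 of 29 relatives tested were called, with a median of 0.71 beside 0.11 over all genes. Of the dystrophin complex around Sntb1, 3 of 11 were called higher (Sntg2 with a log2 difference of 4.43, Dmd with 3.79 and Sgce with 2.52) and 2 lower (Dtnb with -1.86 and Sgcb with -1.22). Of the fibrocystin and polycystin group, 3 of 7 were higher (Pkhd1l1 with 5.05, Dzip1l with 3.83 and the ion channel gene Pkd2 with 3.34) and Pkd2l1 was lower (-2.69). Among relatives of Clvs1 with a lipid-binding CRAL-TRIO domain, 3 of 6 were higher (Mospd2 with 3.12, Sec14l2 with 2.15 and Ttpal with 1.39) and Sec14l1 was lower (-1.83). Flnc, a filamin of muscle, was the one called of 3 tested partners of Ky (2.48). No other gene of the albumin family, to which Gc belongs, was called of 2 tested, and no other Tmprss11 protease passed the filter on low counts in either stage.

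Some but not all markers of the tissues where the members are known to act were near 0. The hepatocyte markers Alb, Ttr and Fgb had at most 3 counts in each Spg library of either genotype, whereas Ahsg had 145 to 426 in KO Spg and 135 to 303 in WT Spg and Apoa1 had 3 to 17. The skeletal muscle list summed to 4.83 to 7.16 CPM in KO Spg and 3.82 to 6.49 in WT Spg, mostly from Mylpf with 101 to 261 counts. Of the epithelial list, Trp63 was the one gene with a row in the tables used here, and had 34 to 42 counts in KO Spg, 71 to 81 in WT Spg and 115 to 357 in KO Spc. The kidney tubule list summed to 0.0832 to 0.625 CPM in KO Spg and 0.0634 to 0.149 in WT Spg. Of its genes, Slc12a1 had 2 to 25 counts in KO Spg and 0 to 1 in WT Spg, below the filter, and Umod had at most 3 counts in each Spg and KO Spc library. In Spc, Des of muscle (5.50), Aqp2 of kidney (4.29) and Ahsg of liver (3.001) were called higher, beside the marker sums of peritubular cells given above, whose part in them was not tested.

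No gene next to the members was called in Spg by edgeR, beside 0.0436% of all genes, so nothing is read from the 0. Within 500 kb of a member lie 118 annotated genes, of which 25 were tested in Spg. Of these, 3 had an unadjusted p under 0.05 and 1 was called by DESeq2. Of the 20659 genes tested in Spg, 1509 had such a p, and DESeq2 called 136 higher and 378 lower. In Spc, 18 of 34 neighbours tested were called (10 higher and 8 lower), or 52.9% beside 58.8% of all genes. Those with the smallest p included Cep63 (log2 difference -3.89) and the long noncoding RNA 4930533D04Rik (-7.26) near Ky, Asph (4.01) overlapping Clvs1, and Uba6 (2.43) near Tmprss11f. Asph was not called in Spg (0.07, edgeR adjusted p = 0.9996), where Clvs1 was high in KO.

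Most genes with a long L1Md_T copy were not called in Spg. Copies of at least 5000 bp lie in 1028 genes, of which 541 were tested in Spg, and 4 of them (0.739%) were called higher, beside 0.0387% of all genes. Of these 4, Gc, Pkhd1 and Sntb1 are members, so the share is not independent of the choice, and without members it was 1 of 537 (0.186%). DESeq2 called more, with 33 of 537 (6.15%) higher without members, beside 0.658% of all genes. The remaining one was Clca3b, with 183, 288 and 252 counts in KO Spg and 0, 2 and 0 in WT. The median log2 fold change of the 541 genes was 0.02, the same as over all genes. In Spc, 37.9% of 651 genes with such a copy were called higher, beside 28.0% of all genes.

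The members are not the only genes of their kind in Spg. With at most 3 counts in each WT library, 67 genes were tested, and each of these had all KO libraries above all WT libraries, since a gene at the floor in WT passes the filter only through KO. At least 40 counts in each KO library were reached by 14, among them Pkhd1, Clvs1, Gc and Tmprss11f. The other 10 include Clca3b, Reg2 with 259, 179 and 111 counts in KO and 0 in WT, and Gm6673 with 202, 184 and 94 against 0, 1 and 0. Apart from members, the genes called higher in Spg by the fit reported were Clca3b, Gm6673 and Eps8l1 (405, 444 and 431 counts in KO against 48, 33 and 28 in WT). With the replicate number as a block, 27 genes including 5 members were called higher.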

How the data were processed

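RNA was sequenced from sorted Spg (3 KO, 3 WT) and Spc (4 KO, 4 WT) as stranded mRNA libraries made from 10 ng RNA with 13 PCR cycles. The authors trimmed reads with cutadapt 4.0, aligned them with STAR 2.7.3a to GRCm38 keeping up to 100 alignments per read, and counted genes and transposon subfamilies with TEtranscripts and strand, so that the deposited counts are raw counts. For single transposon copies the authors ran TElocal, and the deposited TPM values sum to 1000000 per library over copies alone. The log2 fold changes, adjusted p-values and mean columns in the deposited tables come from the authors' DESeq2 1.44.0 test of KO against WT and were not used. A further Spg library per genotype, excluded by the authors for low RNA quality, was not analysed here.

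All 14 libraries were used. The Spg table columns numbered rep4 belong to the samples titled replicate 3. Counts were fitted with edgeR 4.0.16 in R 4.3.3 (filterByExpr, TMM factors over genes and subfamilies, quasi-likelihood test, two-sided, Benjamini-Hochberg over all features, with a feature called where the adjusted p was under 0.01), separately by stage and all 14 libraries in 4 groups for the stage comparisons. TPM times copy length gave whole reads for 100% of values within 0.01, which gave 1.07 to 2.55 reads on copies per Spg library and 0.826 to 3.83 per Spc library, in units of 1000000, and copies carry no test. Fold bounds use 3 counts per library as the floor, which covers counting error only. Deviations from the group means of KO and WT Spg libraries with the same replicate number had r = 0.458, 0.162 and 0.169. Of pairs with different numbers, KO replicate 2 and WT replicate 3 had r = 0.236, and the rest had -0.399 to -0.0723. Whether the numbers pair the libraries is therefore not certain, and the fit reported does not use them. With the number as a block the same 5 members were called in Spg, and 27 genes in place of 8 were called higher. The labels name littermates but no animal per library, so p-values measure the spread between these samples.

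The members and the lists of relatives, neighbours, markers and young subfamilies were chosen with earlier results of these data known. Named are the members, the 3 genes and 1 subfamily most like each, the called neighbours with the smallest p (of 5, 1 is not reported here), list genes called in a stage, the leading copies with a mean of at least 0.5 TPM, and genes with a long L1Md_T copy called higher in Spg. Pkhd1l1, Reg2, Gm6673, Eps8l1, Gm11816, list genes not called and the copies upstream of Ky and Clvs1 were also described after their values were seen. Alternatives were DESeq2 1.42.0, other scalings, no filter, the block, other thresholds and windows, and each library left out in turn. Scripts were tested on simulated data. Other computations used Python 3.11.15, pandas 2.3.3, NumPy 2.4.6 and matplotlib 3.10.9.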

Additional observations from a re-analysis of the deposited data

Results flagged for a closer look

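Of 24 groups of 4 Spc libraries looked at for the 6 genes and their young copies, 4 held a library far from the others, where chance flags about 1 group in 20. The summed young copies of Pkhd1 in KO Spc ran from 27.5 to 61.6 reads per 1000000 library counts (RPM), and the gap of the lowest library, replicate 2, to the nearest other was 0.862 of the range. The same replicate was the lowest KO Spc library in the counts of Sntb1, Pkhd1, Clvs1 and Tmprss11f, and in reads over all transposon copies. In WT Spc, 1 library each lay above 3 at 0 for Sntb1 counts (0.0503 CPM), for the young copies of Sntb1 (0.0840 RPM) and for those of Pkhd1 (0.142). The gap was 1.0 of the range in each case, which rests on 2 to 7 reads. With 3 libraries at 0 the gap is 1.0 for any other value of the remaining one, so these flags have no chance rate to be set against.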

How the results depend on the processing

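The number of members called in Spg (5) ran from 0 to 5 when 1 library was left out. In Spc it was 5 throughout, also with the replicate number as a block, though same-numbered Spc libraries did not all deviate together (r = 0.0728, 0.21, 0.00703 and 0.112) and share only a number. The block left 0 members called between stages in KO and 2 in WT. Between stages in KO, 0 members were called in the fit reported, 4 under DESeq2 and 2 at an adjusted p under 0.05. Between stages in WT, 3 were called, 1 under library totals, and 1 to 3 when 1 library was left out. Of neighbours, 1 was called in Spg under DESeq2, and 4 in Spc within 100 kb. The share of genes with a long L1Md_T copy called higher in Spg was 6.84% under DESeq2, beside 0.658% of all genes. Clvs1 between stages in WT had a log2 difference of 1.12, and of -1.01 without WT Spc replicate 3 (over libraries left out in turn, -1.01 to 2.19), in no case called. The alternatives between stages in WT were chosen after the data were seen. The cause of these changes was not tested, except that leaving out a library or narrowing the window leaves fewer samples or genes.

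Among the other values compared across alternatives, 1266 stayed the same (the same direction and side of the threshold where a test was made, a count within 1.5 times, or a move of less than 1 SD for values given without a test), 98 lost and 13 gained a call, 31 moved and 1 reversed. In each of 11 alternatives, the log2 differences of all 6 members in Spg stayed above 0. Members with a young copy numbered 5 within 5000 bp, within the gene alone and within 20000 bp, and 6 within 40 kb, a distance also chosen later. Copies with few reads, as in Clvs1, give a single library's value little precision.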

Other observations

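Downstream of Ky, 5393 bp from its end and on its strand, lies the processed pseudogene Gm7364, which was called higher in KO Spc (log2 difference 7.24, edgeR adjusted p = 0.000351) and was not tested in Spg. Gm49794, a long noncoding RNA, was the one gene called lower in KO Spg, with 2, 8 and 2 counts in KO and 3307, 9501 and 4133 in WT. In KO Spc it had 0, 0, 12 and 8 counts, and in WT Spc 7110, 18144, 21500 and 6829.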
